A study of Mus musculus with 4 samples.

Results

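Red blood cell-rich spots were the spots of mouse pancreas sections that held the most adult globin mRNA for their depth. In each of 4 sections, spots with at least 500 UMIs (unique molecular identifiers, 1 per counted molecule) were scored by the summed UMIs of the alpha-globin genes Hba-a2 and Hba-a1 and the beta-globin genes Hbb-bs and Hbb-bt divided by all UMIs of the spot, and the 150 highest-scoring spots with at least 2 UMIs of these genes were taken as members, which were therefore selected on their globin counts. This gave 343 members of the 26960 spots with at least 500 UMIs. The section labelled Ehmt2+/+ replicate 1 gave 150 members, Ehmt2+/+ replicate 2 gave 19, Ehmt2fl/fl replicate 1 gave 50 and Ehmt2fl/fl replicate 2 gave 124. The limit of 150 was reached in 1 section, where 414 spots held at least 2 globin UMIs, and in the other 3 sections every spot that met both minimums was a member.

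Adult haemoglobin is a tetramer of alpha-globin and beta-globin chains, and circulating red blood cells keep globin mRNA mainly in their youngest form, the reticulocyte. In the pancreas these cells lie inside capillaries, arterioles and veins, whose walls are made of endothelium, pericytes and smooth muscle, and they leave the vessels where inflamed tissue bleeds. Caerulein is a cholecystokinin analogue that overstimulates acinar cells, the enzyme-secreting cells of the exocrine pancreas, and causes acute pancreatitis. A Visium spot is a small region that can hold several cells of different types. A globin-rich spot is therefore not a single red blood cell. It is read here as a place with blood in or near it, and whether its globin came from blood at that place was not tested.

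All 4 sections came from C57Bl/6 mice that carried the Pdx1-Cre transgene, which drives Cre in pancreatic epithelium and not in blood, vessel or immune cells. The 2 controls were labelled as wild type for Ehmt2, the gene of a histone H3 lysine 9 methyltransferase also called G9a (Ehmt2+/+), and the 2 others as knockouts (Ehmt2fl/fl). Each mouse was treated at 4 weeks of age with 8 hourly intraperitoneal injections of 50 μg/kg caerulein after a 12 h fast and killed 18 h after the first, and no section of an untreated pancreas was analysed here. Values for the 4 sections are given below in the order Ehmt2+/+ replicate 1, Ehmt2+/+ replicate 2, Ehmt2fl/fl replicate 1 and Ehmt2fl/fl replicate 2.

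The sections differed in depth and content in ways that bear on the members. Spots with at least 500 UMIs held 43784930, 7845575, 6643747 and 7938386 UMIs in all, with a median of 6328, 874, 981 and 1113 per spot, so the first section was by far the deepest. The members held 576001, 20695, 57002 and 161942 UMIs, with a median of 3460, 970, 1007 and 1203 per member. Members of the first section were thus shallower than its other spots, whose median was 6414, and those of the other 3 sections were close to theirs. The first section of each genotype shared 1 slide and the second sections shared another. The Y-linked genes Ddx3y, Eif2s3y, Kdm5d and Uty had at most 1 UMI each in both Ehmt2+/+ sections, and 36 to 108 UMIs in Ehmt2fl/fl replicate 1 and 67 to 150 in Ehmt2fl/fl replicate 2, so that genotype and sex cannot be told apart in these sections. The sections drew on the same 14336 slide barcodes, of which 13898 were listed in all 4. These barcodes name positions on the slide and not cells. Spots without tissue were left out here only through the minimum of 500 UMIs, and in Ehmt2+/+ replicate 1 the 6144 spots used exceed the 5818 positions marked as tissue, so some analysed spots lay outside it.

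The 4 genes of the rule lie in the alpha-globin cluster on chromosome 11 and the beta-globin cluster on chromosome 7 (build GRCm38). Hba-a1 spans chr11:32283511-32284465 and Hba-a2 chr11:32296489-32297298 on the plus strand, and Hbb-bt spans chr7:103812524-103813996 and Hbb-bs chr7:103826534-103828096 on the minus strand. Each pair is a near copy: over their coding sequences of 429 bases Hba-a1 and Hba-a2 differ at 1 base (99.8% identity), and over 444 bases Hbb-bs and Hbb-bt also differ at 1. Hba-a1 was listed at 0 UMIs in every spot of all 4 sections, also in the 29909 spots under 500 UMIs, so every alpha-globin UMI carried the name Hba-a2. Whether Hba-a2 counts also hold Hba-a1 molecules, and how Hbb-bs and Hbb-bt shared theirs, cannot be told apart from these counts. The promoters of Hba-a1 and Hba-a2 are also equal, with 247 of 247 compared bases identical. The 250 bases before the RefSeq start of Hba-a2 (chr11:32296242-32296491, plus strand), of Hbb-bs (chr7:103827929-103828178, minus strand) and of Alas2 (chrX:150547167-150547416, plus strand) are shown because Alas2, the erythroid enzyme that starts haem synthesis, is a gene outside the rule that also rose in members. Capitals mark GATAA, the core letters bound by GATA factors, and CACCC, the core of the box bound by erythroid Klf1, on either strand.
Hba-a2: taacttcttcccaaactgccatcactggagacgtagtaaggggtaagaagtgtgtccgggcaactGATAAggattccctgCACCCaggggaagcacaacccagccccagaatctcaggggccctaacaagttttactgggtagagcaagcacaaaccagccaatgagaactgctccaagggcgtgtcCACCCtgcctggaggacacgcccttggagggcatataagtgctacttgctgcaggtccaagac
Hbb-bs: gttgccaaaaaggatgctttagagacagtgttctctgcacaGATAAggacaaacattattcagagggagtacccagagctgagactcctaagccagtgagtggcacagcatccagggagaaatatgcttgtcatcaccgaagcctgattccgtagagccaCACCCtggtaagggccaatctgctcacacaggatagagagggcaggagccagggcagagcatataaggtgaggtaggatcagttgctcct
Alas2: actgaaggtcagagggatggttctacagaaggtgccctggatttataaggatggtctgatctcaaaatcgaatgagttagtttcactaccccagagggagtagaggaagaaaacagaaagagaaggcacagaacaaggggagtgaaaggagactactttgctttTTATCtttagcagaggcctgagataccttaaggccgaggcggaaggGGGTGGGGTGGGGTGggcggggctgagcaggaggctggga
All 3 windows hold both sets of letters, which occur together in 10.1% of the 32851 promoter windows of this length, with GATAA in 22.6% and CACCC in 52.0% of them.

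Globin counts were low everywhere, and a small number of spots carried many of them. The members were chosen by these values, which are given as a description with no test. Summed over the 4 genes, the members held 1096, 55, 123 and 676 globin UMIs, which were 43.4%, 22.6%, 23.0% and 52.9% of the globin UMIs of each section's spots with at least 500 UMIs. In counts per 1000000 UMIs (CPM), globin stood at 1903, 2658, 2158 and 4174 in members and at 33.1, 24.0, 62.6 and 77.4 in the other spots. Of the 343 members, 150 rested on exactly 2 globin UMIs, 89 on 3 or 4 and 104 on at least 5, and 38 held at least 10. Members with at least 5 globin UMIs numbered 73, 1, 3 and 27. Those of the first section had a median of 4375 UMIs and reached down to a globin share of 0.0577%. Those of Ehmt2fl/fl replicate 2 had a median of 1037 UMIs, and the other members of that section 1209. How far depth set these counts was not tested.

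**Figure D1:**
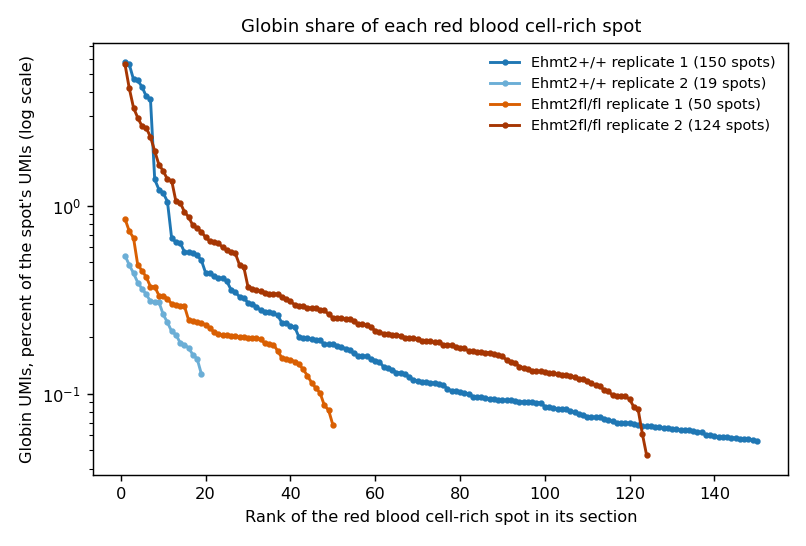
Globin UMIs as a percent of all UMIs of the spot (log axis) against the rank of each red blood cell-rich spot in its section, with 1 line per section and 1 point per spot. Ehmt2+/+ replicate 1 and Ehmt2fl/fl replicate 2 start at 5.76% and 5.61%, while Ehmt2+/+ replicate 2 and Ehmt2fl/fl replicate 1 start at 0.541% and 0.848%.

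The plot of globin share by rank shows a steep head and a long flat tail in the 2 sections with the most members. The highest member had 5.76%, 0.541%, 0.848% and 5.61% of its UMIs from globin, the median member 0.112%, 0.264%, 0.204% and 0.209%, and the lowest 0.0559%, 0.128%, 0.0685% and 0.0472%. In Ehmt2+/+ replicate 1 the first spot past the limit of 150 had 0.0556%, nearly the same as the last member. In all sections, spots with a single globin UMI, which the rule left out, reached 0.196% to 0.200%, above many members, because 1 UMI is a large share of a shallow spot.

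Beta-globin was more frequent in spots that held alpha-globin, although most spots with alpha-globin had no beta-globin UMI. Over all spots with at least 500 UMIs, 42.5%, 9.57%, 13.7% and 19.95% of those with an Hba-a2 UMI held beta-globin, against 7.70%, 1.45%, 3.77% and 5.596% of those without. Both kinds were found in 129, 9, 31 and 77 members, together 246 of 343, all of which hold at least 2 globin UMIs by the rule. In level, beta-globin stood at 139.5, 159.7, 186.3 and 456.1 CPM in spots with an Hba-a2 UMI and at 13.2, 15.5, 38.8 and 49.6 in spots without one, a ratio of 10.6, 10.3, 4.80 and 9.20. With every spot thinned to 500 UMIs, beta-globin was expected in 9.12%, 5.90%, 8.21% and 12.4% of spots with Hba-a2 and in 1.05%, 0.790%, 1.96% and 2.58% of the rest.

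The spots with the highest scores differed in what surrounded the globin. In Ehmt2+/+ replicate 1 the 3 top spots held 60, 65 and 47 globin UMIs among 1041, 1158 and 1004, and digestive enzyme genes made up 45.5%, 50.5% and 52.1% of their UMIs. In Ehmt2fl/fl replicate 2 the 3 top spots held 101, 25 and 45 globin UMIs among 1799, 596 and 1359, and enzymes made up 0.278%, 0.671% and 0.221%. Over all members with at least 5 globin UMIs, digestive enzyme genes gave 6274 of every 10000 UMIs in Ehmt2+/+ replicate 1, where the other spots had 6563, and 212 of every 10000 in Ehmt2fl/fl replicate 2, where the other spots had 2211. In the first section that sum is weighted by deep spots with a low globin share, and its 3 top spots lay below the median of 65.1% enzymes in other spots.

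Globin was also present outside the members. Spots with at least 1 globin UMI made up 18.2% (95% exact binomial interval 17.2 to 19.2), 2.63% (2.29 to 3.01), 7.13% (6.51 to 7.78) and 11.2% (10.5 to 12.0) of spots with at least 500 UMIs, intervals that cover counting error only. Thinned to 500 UMIs per spot the expected shares were 3.48%, 1.49%, 3.92% and 5.50%, so the first place of the deep section was lost at equal depth. Spots under 500 UMIs, which the rule excluded, held more globin per UMI than the deeper ones in all 4 sections, at 95.6, 56.6, 159.9 and 283.5 CPM against 57.7, 31.0, 80.5 and 161.0. How much of the globin in any spot was free RNA was not tested.

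As a share of all UMIs in spots with at least 500 UMIs, globin was higher in both Ehmt2fl/fl than in both Ehmt2+/+ sections, without overlap. The mean was 120.8 ± 56.9 (SD, n = 2) CPM in Ehmt2fl/fl and 44.3 ± 18.9 (SD, n = 2) in Ehmt2+/+, a ratio of 2.72. These are counts of the genes the rule used and are given with no test. Such shares also depend on the other genes counted. In the spots that were not members, digestive enzyme genes took 6563, 5475, 2276 and 2211 of every 10000 UMIs other than globin. How far the lower enzyme share in Ehmt2fl/fl set the globin difference was not tested. Within slides the ratio was 1.40 on the first and 5.199 on the second. Fewer red blood cells and less globin mRNA per cell cannot be told apart in such sums, nor can genotype and sex.

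Next, the members were checked for other erythroid transcripts, which were not used to choose them. UMIs were summed over the members and over all other spots with at least 500 UMIs of each section, and edgeR's quasi-likelihood test compared the sums within sections, with the globin genes left out and p-values adjusted over 19126 genes. Of these, 7 genes (0.0366% of the genes tested) were higher in members at an adjusted p under 0.05 and 0 were lower (0.0%), with 1251 genes at an unadjusted p under 0.05, and DESeq2 gave 8 higher and 0 lower. The erythroid list, to which Alas2 belongs, held 2 of the 7 calls (of its 23 tested genes, median log2 fold change −0.34 against −0.47 over all genes tested).

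Alas2 held 7, 4, 2 and 13 UMIs in members, equal to 12.2, 193.8, 35.2 and 80.6 CPM, here per 1000000 UMIs other than globin, against 0.972, 9.46, 6.22 and 11.4 CPM in the other spots. It was higher in members in 4 of 4 sections, with a log2 fold change of 2.44 ± 0.46 (SE) and an adjusted p of 0.00102 (edgeR quasi-likelihood test). The call was lost without either Ehmt2fl/fl section.

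Bpgm, the red blood cell enzyme that makes 2,3-bisphosphoglycerate and is also made in other tissues, was the list's most abundant gene in members of 3 of the 4 sections. Its level was 160.0, 145.3, 175.8 and 446.5 CPM in members and 138.0, 155.3, 165.5 and 140.7 CPM in other spots, so members stood clearly above the other spots in Ehmt2fl/fl replicate 2 and not in the other sections (adjusted p = 0.845). In that section the 27 members with at least 5 globin UMIs reached 1503 CPM, and the other 97 members 185.6 CPM. Slc4a1, the band 3 anion exchanger of the red cell membrane, which was read after its values were seen, had 8 UMIs in all members. The summed erythroid list stood at 3.23, 10.2, 7.56 and 9.92 UMIs per 10000 in members and at 2.39, 3.80, 5.77 and 6.08 in other spots. Its ratio of 1.35, 2.68, 1.31 and 1.63 was below the olfactory receptor ratio, described next, in both Ehmt2+/+ sections and above it in both Ehmt2fl/fl sections. Of the 23 genes tested 8 had a positive log2 fold change, where 23.1% of all genes did, and 13 lay above the median of all genes. Ube2l6, another gene of the list, was higher in members in 4 of 4 sections, in Ehmt2+/+ replicate 2 on 1 UMI. Fech, the enzyme of the last step of haem synthesis, was lower in members in 4 of 4 sections, and neither gene passed. By the rule the label of the spots rests on the globins. Of the erythroid list, which the rule did not use, 2 genes passed, and its sum was higher in members in 4 of 4 sections.

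**Figure D2:**
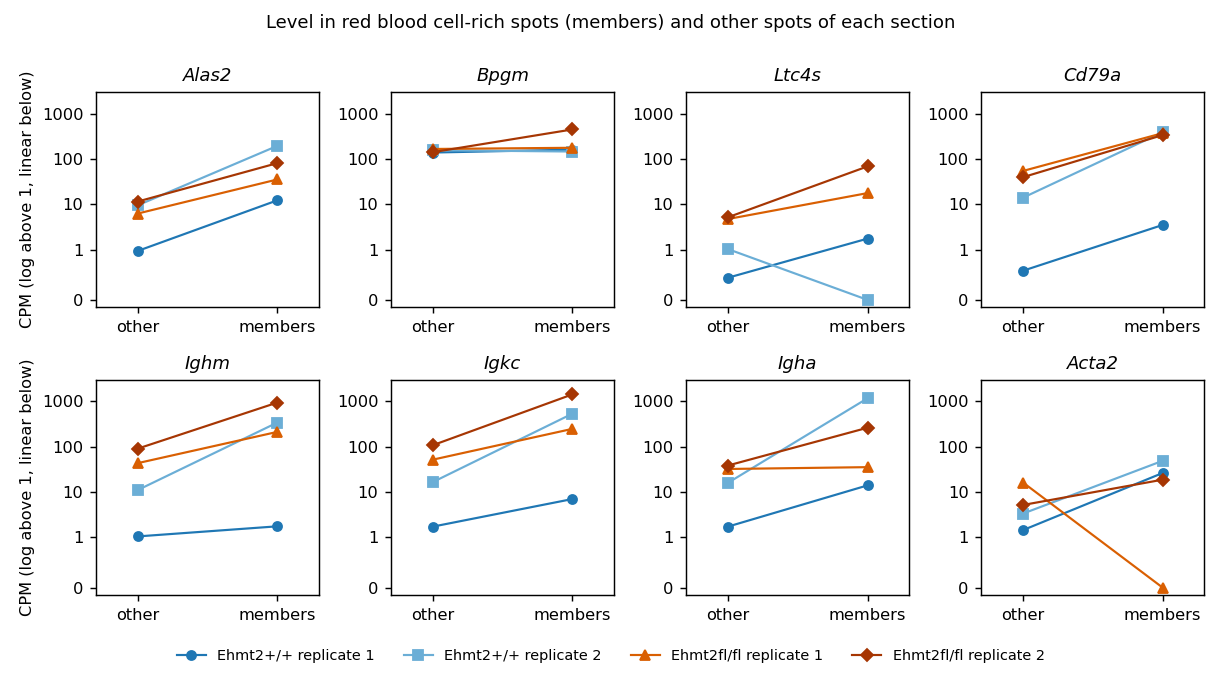
CPM of 8 genes in the other spots and in the red blood cell-rich spots (members) of each section, on an axis that is logarithmic above 1 and linear below, with 1 line per section. Alas2, Cd79a, Ighm, Igkc and Igha rise in 4 of 4 sections, while Ltc4s falls to 0 UMIs among the 19 members of Ehmt2+/+ replicate 2 and Acta2 among the 50 members of Ehmt2fl/fl replicate 1, and Bpgm differs most in Ehmt2fl/fl replicate 2 (446.5 against 140.7 CPM).

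The share of all other genes set the scale for these values. Members had fewer digestive enzyme UMIs than other spots of their section in 4 of 4 sections, with a median of 62.0%, 6.92%, 19.4% and 8.76% of a member's UMIs against 65.1%, 55.9%, 20.9% and 18.9%. Members with at least 50% of UMIs from these genes made up 87.3% and 36.8% in the Ehmt2+/+ sections, where 98.4% and 70.5% of other spots did, and 0.0% in both Ehmt2fl/fl sections, where 0.839% and 0.962% of other spots did. Olfactory receptor genes (957 tested), most of which are known from olfactory neurons and not from pancreas, were taken as an approximate measure of probe background. They summed to 5.30, 174, 105 and 151 per 10000 in members and 3.10, 58.0, 98.5 and 144 in other spots, a mean log2 ratio of 0.63 ± 0.72 (SD, n = 4 sections). That list was set after the values were seen. The median log2 fold change over all genes was −0.47 with TMM normalization and 0.20 with library sizes alone, a shift in scale under which 88 genes (0.46%) were higher and 0 lower, and list medians are therefore also given against the median of all genes. With TMM the median of the olfactory receptor genes itself lay 0.24 above that of all genes. Against other spots matched to the members in depth, 9 of 1223 genes (0.736%) were higher, Igkc and Ighm among them, and Alas2, Cd79a, Igha and Ltc4s had too few counts there to be tested. Of the genes tested, 6.33% were higher in members in 4 of 4 sections and 7.56% were lower.

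Among vessel genes the endothelial list was higher in members in all 4 sections. Its 24 genes summed to 2.56, 10.2, 10.6 and 11.5 UMIs per 10000 in members and to 1.07, 3.15, 8.03 and 7.45 in other spots, with an endothelial UMI in 82, 10, 29 and 89 members. Its ratio of members over other spots, 2.39, 3.23, 1.31 and 1.54, was above the olfactory receptor ratio of 1.71, 2.997, 1.06 and 1.05 in each section. No endothelial gene passed the adjusted threshold (0 of 24 in either direction), and the median log2 fold change of the list was 0.02, which is 0.49 above the median of all genes. Among the 24, 7 were higher in members in 4 of 4 sections (29.2%, against 6.33% of all genes), namely Cdh5, Eng, Cldn5, Egfl7, Ptprb, Sox18 and Clec14a, and 0 were lower. The marker lists were chosen with earlier results of these data known, so this share is a description and not a test. With library sizes alone Cldn5, Ptprb and Sox18 passed.

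Sox18, a transcription factor of blood and lymph vessel endothelium, stood at 29.6, 145.3, 281.3 and 204.6 CPM in members and at 12.9, 59.3, 152.3 and 111.5 CPM in other spots. Eng, a TGF-beta co-receptor of proliferating endothelium, stood at 20.9, 48.5, 70.3 and 86.8 against 11.3, 21.3, 59.5 and 50.2 CPM, and the VEGF receptor gene Flt1 at 15.7, 0.0, 105.5 and 111.6 against 13.01, 38.2, 92.5 and 89.3 CPM. Members of the second section rest on 3 UMIs of Sox18 and 1 of Eng. The fitted log2 fold changes of these genes ranged from −0.55 for Flt1 to 0.21 for Sox18, with adjusted p-values of 0.73 and 0.896.

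The lists of endothelial subtypes did not single out 1 kind of vessel. The capillary list, led by Plvap, the diaphragm protein of fenestrated capillaries, stood at 1.55, 3.39, 5.63 and 5.95 per 10000 in members and 0.898, 1.55, 4.72 and 4.23 in other spots. The venous list stood at 0.209, 0.969, 0.879 and 1.86 against 0.119, 0.396, 0.849 and 0.952, and the arterial list at 0.278, 0.484, 2.29 and 2.42 against 0.150, 0.773, 1.43 and 1.68. Lymphatic endothelial genes, which mark vessels that normally carry no red blood cells, stood at 0.417, 0.484, 3.34 and 2.98 against 0.289, 0.654, 2.61 and 2.44. Genes of endothelial activation, such as the leukocyte-capturing receptor Selp with 1, 0, 3 and 11 UMIs, stood at 0.174, 1.94, 1.05 and 1.92 against 0.109, 0.518, 1.29 and 1.26. Of the genes tested in these lists 0 passed in either direction, and the list medians lay 0.05 to 0.66 above the median of all genes. The median of the olfactory receptor genes lay 0.24 above it, and those of the capillary (0.19) and lymphatic (0.05) lists lay below that. In Ehmt2+/+ replicate 2 the capillary, venous, arterial and lymphatic ratios of 2.19, 2.45, 0.627 and 0.741 lay below the olfactory receptor ratio of 2.997. That of endothelial activation, 3.74, lay above it. In Ehmt2fl/fl replicate 2 each of these lists lay above the olfactory receptor ratio, and in both replicate 1 sections they lay on both sides of it.

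Smooth muscle genes had the largest mean log2 ratio of the vessel lists, with the highest ratio in Ehmt2+/+ replicate 1. The 12 genes summed to 1.83, 3.39, 3.17 and 3.72 per 10000 in members and to 0.270, 0.900, 2.64 and 2.38 in other spots, a ratio of 6.76, 3.77, 1.201 and 1.56. These member values rest on 105, 7, 18 and 60 UMIs, and the olfactory receptor ratio was 1.71, 2.997, 1.06 and 1.05. The list's median log2 fold change was 0.55, which is 1.01 above the median of all genes, and 0 of 12 genes passed. Acta2, the smooth muscle actin gene, came closest, with 15, 1, 0 and 3 UMIs in members (26.1, 48.5, 0.0 and 18.6 CPM) against 1.44, 3.32, 16.1 and 5.14 CPM, a log2 fold change of 2.07 ± 0.49 (SE) and an adjusted p of 0.0536 in the edgeR test. It was named after its values were seen. Tagln, an actin-binding protein of smooth muscle, stood at 41.8, 48.5, 52.7 and 49.6 CPM in members and 4.14, 6.39, 49.7 and 35.6 CPM in other spots, nearly equal in both classes of Ehmt2fl/fl replicate 1. Its member value in Ehmt2+/+ replicate 2 rests on 1 UMI. With library sizes alone Acta2, Myh11, Myl9 and Tagln passed, as did Eln, the elastin gene of the vessel wall list. With TMMwsp normalization Acta2, Myh11 and Eln passed, and with the digestive enzyme genes left out Acta2 did.

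Pericyte genes stood at 0.887, 3.88, 4.22 and 8.62 per 10000 in members and at 0.464, 1.79, 4.89 and 4.65 in other spots, so they were lower in members in Ehmt2fl/fl replicate 1. Pdgfrb, the receptor that recruits pericytes to endothelium, was higher in members in 4 of 4 sections, at 27.8, 96.9, 175.8 and 297.6 against 12.98, 55.9, 137.6 and 120.0 CPM, and Rgs5, another pericyte gene, was not, at 17.4, 0.0, 52.7 and 117.8 against 11.2, 20.4, 151.2 and 118.8 CPM. The Pdgfrb value for members of Ehmt2+/+ replicate 2 rests on 2 UMIs. The vessel wall matrix list, most of whose UMIs came from the basement membrane collagen Col4a1, stood at 5.39, 6.78, 19.5 and 24.99 against 2.67, 5.86, 19.7 and 18.7 per 10000. For both lists 0 genes passed, of 10 and of 7, and with library sizes alone Pdgfrb passed. The pericyte and matrix ratios lay below the olfactory receptor ratio in Ehmt2+/+ replicate 2 (2.17 and 1.16 against 2.997). They also did so in Ehmt2fl/fl replicate 1 (0.864 and 0.993 against 1.06), and lay above it in the other sections.

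B and plasma cell genes had the highest mean log2 ratio of the lists (2.51 ± 1.24, SD, n = 4 sections), though not the highest ratio in each section. In Ehmt2+/+ replicate 1 their ratio was 2.004 on 4 UMIs, below the 6.76 of smooth muscle, and in Ehmt2fl/fl replicate 1 it was 3.93, below the 5.59 of islet genes. All 7 genes of the list had a positive log2 fold change, with a median of 0.94, and 2 of the 7 passed (28.6%, against 0.0366% of all genes), while Igkc and Igha, which were called too, are not in the list. Because the list was chosen with earlier results of these data known, these shares are a description and not a test. The list summed to 0.0696, 9.69, 6.68 and 15.5 UMIs per 10000 in members and to 0.0347, 0.590, 1.70 and 2.20 in other spots. Its UMIs lay in 4, 7, 6 and 62 members, and the 3 richest members held 75%, 75%, 92.1% and 44.8% of them.

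Cd79a, a chain of the B cell receptor complex, held 2, 8, 21 and 54 UMIs in members (3.48, 387.6, 369.2 and 334.9 CPM) against 0.579, 13.9, 54.2 and 39.5 CPM in other spots. Its log2 fold change was 2.48 ± 0.47 (SE) with an adjusted p of 0.00102 in the edgeR test. Ighm, the heavy chain of IgM, held 1, 7, 12 and 151 UMIs (1.74, 339.1, 211.0 and 936.3 CPM against 1.04, 10.99, 43.1 and 90.2 CPM), with a log2 fold change of 2.301 ± 0.508 (SE) and an adjusted p of 0.019. Members exceeded the other spots in 4 of 4 sections for both genes, although for Ighm the difference in Ehmt2+/+ replicate 1 rests on 1 UMI.

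The immunoglobulin constant regions of the kappa light chain and of IgA behaved alike. Igkc held 4, 11, 14 and 229 UMIs in members, at 6.96, 532.9, 246.1 and 1420 CPM against 1.71, 16.5, 51.5 and 107.3 CPM (log2 fold change 2.44 ± 0.51 (SE), edgeR adjusted p = 0.00562). Igha held 8, 24, 2 and 42 UMIs, at 13.9, 1163, 35.2 and 260.4 CPM against 1.71, 15.8, 32.0 and 38.2 CPM (2.39 ± 0.46 (SE), edgeR adjusted p = 0.00108), and in Ehmt2fl/fl replicate 1 its levels in both classes were nearly equal. Whether probes of 1 antibody gene also bind transcripts of another was not tested. The calls of Cd79a, Igkc and Ighm were lost without Ehmt2fl/fl replicate 1, that of Ighm also without Ehmt2fl/fl replicate 2, and that of Igha without Ehmt2+/+ replicate 2.

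Another gene called was Ltc4s, the enzyme that makes leukotriene C4 in mast cells, eosinophils and macrophages. It falls outside the rule for named genes because its members held no UMI in Ehmt2+/+ replicate 2. Its UMIs were 1, 0, 1 and 11 in members (1.74, 0.0, 17.6 and 68.2 CPM) against 0.440, 1.02, 4.71 and 5.14 CPM, with a log2 fold change of 2.73 ± 0.57 (SE) and an adjusted p of 0.00562 (edgeR). Mast cell genes as a list did not stand higher, at 0.0696, 0.484, 0.879 and 0.558 per 10000 in members and 0.105, 0.392, 0.624 and 0.909 in other spots.

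**Figure D3:**
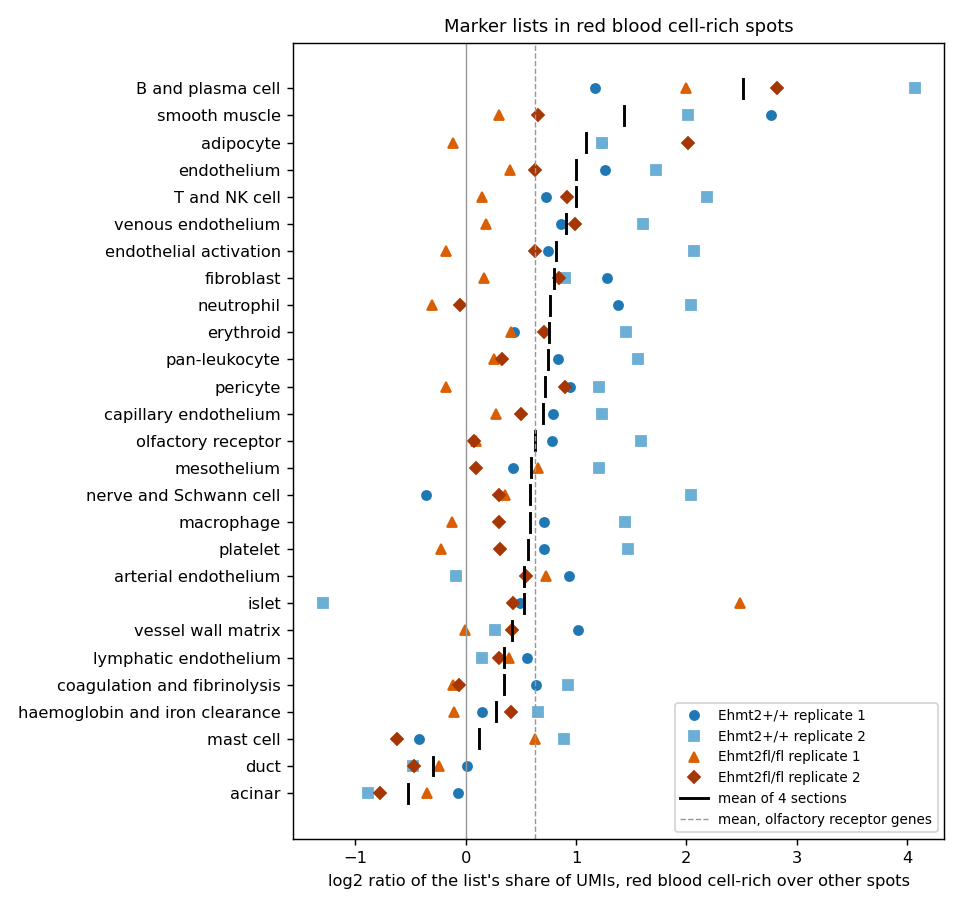
Log2 ratio of each marker list's share of UMIs in red blood cell-rich spots over other spots, with 1 symbol per section, a black bar at the mean of 4 sections and a dashed line at the mean of the olfactory receptor genes (0.63). B and plasma cell genes lie above 0 in 4 of 4 sections with a mean of 2.51, and acinar genes lie below 0 in 4 of 4 with a mean of −0.52.

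Neutrophil and macrophage genes, in contrast to those of B cells, differed in direction between sections. The neutrophil list stood at 0.244, 3.39, 2.46 and 3.16 per 10000 in members and at 0.0970, 0.882, 3.15 and 3.31 in other spots, higher in both Ehmt2+/+ sections and lower in both Ehmt2fl/fl sections. In the Ehmt2+/+ sections it rests on 14 and 7 UMIs. Of its 12 genes tested 0 passed, 0 were higher in 4 of 4 sections and 4 were lower, where 7.56% of all genes were, on counts too low to give a direction for each (Csf3r, one of the 4, held 0, 0, 2 and 5 UMIs). Its median log2 fold change of −0.73 lay 0.26 below that of all genes. The collagenase gene Mmp9, released from neutrophil granules, stood at 3.48, 96.9, 35.2 and 111.6 CPM in members and 1.504, 13.3, 66.2 and 84.1 CPM in other spots.

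The macrophage list stood at 1.93, 4.85, 10.9 and 12.4 per 10000 in members and at 1.19, 1.87, 12.0 and 10.1 in other spots, with 0 of 13 genes passing and a median 0.13 above that of all genes. Ccr2, the chemokine receptor of recruited monocytes, was 50.4, 48.5, 123.1 and 99.2 CPM in members and 21.3, 17.6, 196.6 and 179.5 CPM in other spots, higher in members of the Ehmt2+/+ sections and lower in those of the Ehmt2fl/fl sections. Cd68, a lysosomal protein of macrophages, was higher in members in 4 of 4 sections, at 36.5, 48.5, 316.5 and 161.2 against 23.8, 25.4, 176.9 and 122.2 CPM. C1qa, a complement gene of resident macrophages, stood at 22.6, 145.3, 123.1 and 217.0 against 17.3, 30.7, 207.4 and 136.6 CPM. Members of Ehmt2+/+ replicate 2 rest on 1 UMI each of Ccr2 and Cd68 and on 3 of C1qa. T and NK cell genes stood at 0.0870, 2.91, 1.23 and 3.04 per 10000 in members and 0.0576, 0.690, 1.19 and 1.62 in other spots, a ratio below that of the olfactory receptors in both replicate 1 sections. Of the 10 genes tested 0 passed and 5 had a positive log2 fold change, where 23.1% of all genes did. Lck, the kinase of T cell receptor signalling, was higher in members in 4 of 4 sections with 2, 3, 3 and 18 UMIs, and Cd3g, a chain of the T cell receptor complex, was lower in 4 of 4. Ptprc, which encodes the pan-leukocyte antigen CD45, stood at 26.1, 145.3, 193.4 and 192.2 against 11.4, 19.7, 126.3 and 112.7 CPM, and neither it nor Lck passed (adjusted p = 0.823 and 0.685), although Lck did with library sizes alone.

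Platelet, coagulation and clearance genes went in different directions across the sections. Platelet genes, led by the chemokine Pf4, stood at 0.296, 2.91, 3.52 and 6.201 per 10000 in members and 0.186, 1.14, 4.21 and 5.02 in other spots. The coagulation and fibrinolysis list stood at 1.55, 3.88, 7.21 and 7.38 against 1.001, 2.17, 7.89 and 7.72, again higher in the Ehmt2+/+ and lower in the Ehmt2fl/fl sections. The genes that clear haemoglobin and iron, most of whose UMIs came from the ferritin chains Ftl1 and Fth1, stood at 16.7, 16.5, 20.04 and 23.1 against 15.0, 10.6, 21.6 and 17.4. Of the 13, 11 and 9 genes tested in these lists 0 passed, and the list medians lay 0.49, 0.20 and 0.08 above that of all genes, for platelets as far as for endothelium.

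Lists of the tissue around the vessels are given as levels, since 0 of their genes passed (of 14 acinar, 8 duct, 8 fibroblast, 8 adipocyte and 8 islet genes). With library sizes alone the fibroblast genes Col1a2, Col3a1 and Dcn and the islet genes Chga, Iapp, Ins1 and Ins2 passed. The adipocyte genes Cfd and Lipe did so too, while 0 acinar and duct genes did. Acinar genes were lower in 4 of 4 sections, at 5267, 2513, 1504 and 1082 per 10000 in members and 5538, 4649, 1914 and 1856 in other spots. Duct genes stood at 10.5, 11.1, 27.3 and 19.4 against 10.4, 15.9, 32.4 and 26.9. Fibroblast genes were higher in 4 of 4 sections, at 11.2, 10.7, 23.9 and 35.6 against 4.60, 5.84, 21.4 and 19.8, although their ratio of 1.83 in Ehmt2+/+ replicate 2 was below the olfactory receptor ratio there. Adipocyte genes stood at 0.348, 1.94, 1.58 and 9.36 against 0.151, 0.925, 1.81 and 2.33, and in Ehmt2fl/fl replicate 2 an adipocyte UMI was found in 51 of 124 members, of which 38 also held a B or plasma cell UMI. Islet genes stood at 363 per 10000 in members of Ehmt2fl/fl replicate 1 against 64.9 in its other spots, but 3 members held 94.96% of those UMIs, and the other sections had 16.0, 2.91 and 12.5 against 11.4, 7.72 and 9.32.

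Spots with exactly 1 globin UMI, of which there were 704, 188, 412 and 602, are no members and show the same quantities in spots the rule left out. Against the spots with no globin UMI, their B and plasma cell level was 1.25, 2.20, 1.69 and 2.18 times as high, above the olfactory receptor background of 1.02, 1.39, 1.04 and 1.03 in each section. The smooth muscle level was 1.21, 1.87, 1.08 and 1.22 times as high, the endothelial level 1.05, 1.28, 1.05 and 1.11 and the pericyte level 1.04, 1.40, 1.08 and 1.198. Macrophage genes were below 1 in 4 of 4 sections (0.959, 0.929, 0.914 and 0.964), and erythroid genes outside the rule were mixed (1.03, 1.26, 0.787 and 1.001). In each section the B and plasma cell ratio was above that of smooth muscle, which was above that of endothelium. In the Ehmt2+/+ sections the B and plasma cell level rests on 23 and 26 UMIs. In replicate 1 of these it was only just above smooth muscle (1.25 against 1.21), and the order was not tested. When all spots with any globin UMI were set against those with none, a choice made after the data were seen, 17 of 19996 genes (0.085%) were higher and 0 lower by edgeR, and Alas2, Cd79a, Igkc, Igha, Ighm and Ltc4s were among them. That comparison includes the members. In spots with exactly 1 globin UMI, Cd79a was higher than in spots with none in 4 of 4 sections, Igkc, Igha and Ighm in 3 of 4, Alas2 in 2 of 4 and Ltc4s in 1 of 4.

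**Figure D4:**
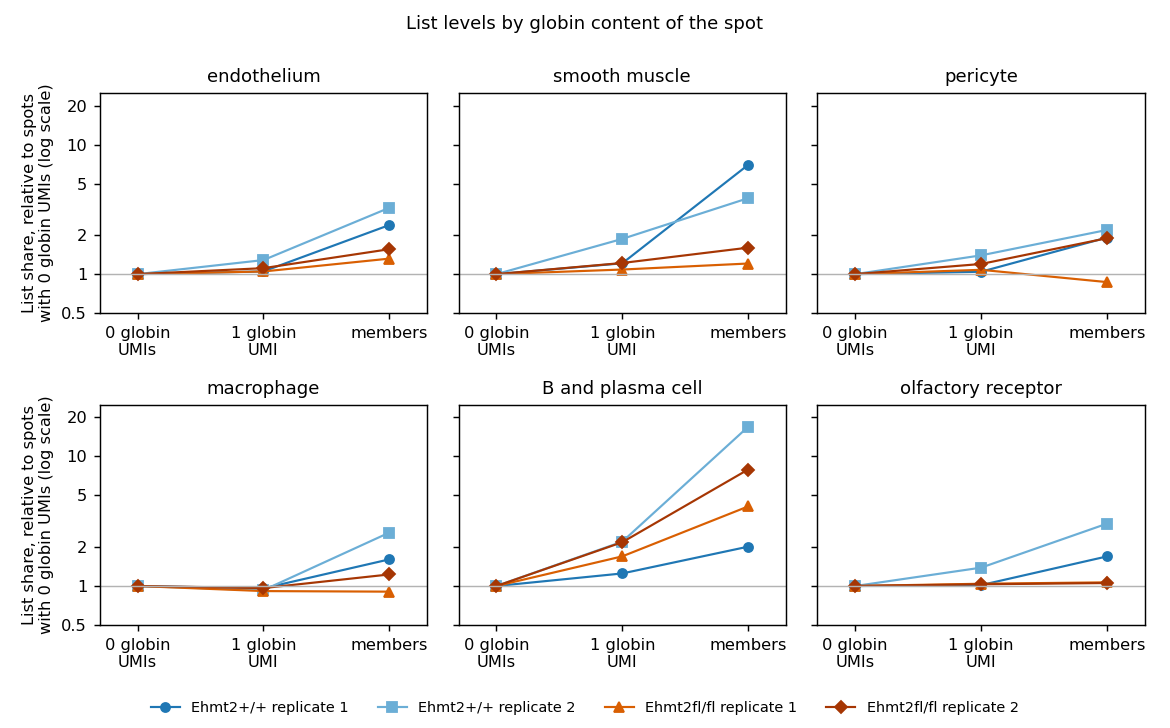
Share of UMIs from 6 lists in spots with 1 globin UMI and in red blood cell-rich spots (members), each divided by the share in spots with 0 globin UMIs of the same section (log axis), with 1 line per section. B and plasma cell genes are 1.25 to 2.20 times as high at 1 globin UMI, and the macrophage list is below 1 there in 4 of 4 sections.

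Last, the members of both genotypes were compared, which asks whether blood-rich places differed between control and knockout pancreas. Ehmt2 itself held 18, 0, 0 and 3 UMIs in members, equal to 31.3, 0.0, 0.0 and 18.6 CPM, where 3 counts correspond to 5.22, 145.3, 52.7 and 18.6 CPM, so its level among members could not be compared. In the other spots it stood at 19.6, 3.96, 10.2 and 12.0 CPM, with overlapping groups, and whether its probes lie in the deleted part was not given in the sources used here. Of 1591 genes with enough counts in the members 0 were higher and 0 lower in Ehmt2fl/fl at an adjusted p under 0.05 (0.0% each, edgeR), with 191 at an unadjusted p under 0.05. With library sizes alone 6 were higher and 1 lower, and with DESeq2 2 were higher and 29 lower.

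The difference between members and other spots was also compared between genotypes, as an interaction in 1 model. None of 19126 genes passed (0 higher and 0 lower, 0.0% each, edgeR), with 1048 at an unadjusted p under 0.05 and 0 by DESeq2. For Alas2 the interaction was 0.23 on the log2 scale (adjusted p = 0.941), for Cd79a 0.44 (0.878), for Ighm 0.98 (0.836) and for Bpgm 2.06 (0.836). With 2 sections a genotype, 19 members in 1 of them and sex on the same side as genotype, a p that misses the threshold does not show that members of both genotypes were alike.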

How the data were processed

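Formalin-fixed pancreas sections of 4 caerulein-treated mice, each a replicate of its own, were profiled by the authors with CytAssist Visium and its mouse probe set (version 1.0) and mapped with Space Ranger 2.0.1 to mm10. The authors deposited raw UMI counts, not normalized, for 32589 features in each spot, 304 of them deprecated probes that were dropped here. The members, lists and tests were chosen with earlier results of these data known.

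Counts were summed per section over members and over other spots (Python 3.11.15, R 4.3.3). Sums were compared with the quasi-likelihood test of edgeR 4.0.16, using TMM factors and filterByExpr (minimum count 10), and p-values were adjusted by Benjamini-Hochberg at 0.05. Section was a block in comparisons within sections. The rule's globins entered neither library sizes nor tests. CPM of other genes were taken per 1000000 of the remaining UMIs. List sums carry no p-value, and their mean log2 ratios add 0.5 UMI to each sum. Thinning gives the share of spots expected to hold a UMI at 500 UMIs. No doublet caller was run and no cell type was assigned to a spot.

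The genes named by rule were the 4 globins, Ehmt2, the 2 or 3 most abundant genes of each marker list in other spots, list genes that passed, and called genes on the same side in all 4 sections. All other genes, and the olfactory receptor list, were chosen after their values were seen. Promoters came from RefSeq, and coding sequences and gene positions from GENCODE, all on GRCm38, the build also called mm10. The scripts were tested on simulated data. Alternatives were library sizes without TMM, TMMwsp, DESeq2 1.42.0, no filter on low counts, enzyme genes left out, globins kept in library sizes, other minimums (1000 UMIs, 5 globin UMIs), 75 or 300 spots, another ranking, depth-matched other spots, all spots with a globin UMI, slide as a block and leaving out each section. Some genes of the erythroid list are not reported here.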

Additional observations from a re-analysis of the deposited data

Results flagged for a closer look

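With 0.5 UMI added to each sum, members and other spots differed in opposite directions in the 2 genotypes for 2 lists. This difference between genotypes was not tested for the lists, and no gene carried it in the interaction test. Without the added 0.5 UMI a list of other globin genes did so too, on 5, 2, 3 and 13 UMIs in members. For neutrophil genes the log2 ratio of members over other spots was 1.38 and 2.04 in the Ehmt2+/+ sections and −0.31 and −0.05 in the Ehmt2fl/fl sections, a difference of the genotype means of −1.89. The Ehmt2+/+ values rest on 14 and 7 UMIs in members, and the olfactory receptor background was higher in members of the same sections. For the coagulation and fibrinolysis list the ratios were 0.64 and 0.92 against −0.11 and −0.06, a difference of −0.87. The olfactory receptor genes had log2 ratios of 0.78 and 1.59 against 0.09 and 0.07, above those of the coagulation and fibrinolysis list in each section.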

How the results depend on the processing

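Members against other spots gave 7 genes higher and 0 lower. The count of higher genes was 88 with library sizes without TMM, 20 with TMMwsp, 17 for all spots with any globin UMI, 4 with 75 spots per section (with 1 lower), 2 with at least 5 globin UMIs and 0 without the replicate block, that is without section as a block, and with 300 spots per section 1 gene was lower; the cause was not tested. Leaving out 1 section gave 3 to 8 higher genes, 3 of them without Ehmt2fl/fl replicate 1, where of the 7 Igha was called and Ltc4s was not tested. Against depth-matched other spots 9 of 1223 genes were higher, of which Igkc and Ighm were among the 7, and the other 5 had too few counts to be tested. Among members, the genotype difference was 0 and 0 genes, and 6 higher and 1 lower with library sizes without TMM, 2 and 29 with DESeq2, 2 higher with at least 1000 UMIs per spot, and 1 to 108 higher and 0 to 211 lower when 1 section was left out (most without Ehmt2+/+ replicate 2), which leaves a lone section assumed to vary like the other genotype. Replicate numbers coincide with slides, and slide as replicate block changed no call (0 higher and 0 lower). The interaction gave 0 genes, 3 with 75 spots, 8 for spots with any globin UMI and 0 to 52 with 1 section left out (most without Ehmt2+/+ replicate 1). List ratios (mean log2 of members over other spots) for spots with any globin UMI fell to 0.11 for erythroid genes, 0.26 for endothelium and 1.15 for B and plasma cells, and reversed to -0.0099 for macrophages; erythroid genes reached 1.65 with at least 5 globin UMIs. Col3a1, Ins2 and Ins1 reversed to 0.80, 1.07 and 0.99 with library sizes. TMMwsp, the slide block, spots with any globin UMI and list ratios with at least 5 globin UMIs were chosen after seeing the data. Members of Ehmt2+/+ replicate 2 held 20695 UMIs, where 3 counts equal 145.3 CPM.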

Other observations

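Beside Alas2, Ltc4s, Cd79a and the antibody genes Igkc, Ighm, Igha, Ighj1 and Ighj4, the genes higher in spots with any globin UMI than in spots with none were Car3, Cfd and Fabp4, which adipocytes make in large amounts, the acute-phase genes Saa1 and Hp, the lipoxygenase gene Alox15, Fcna and Cd5l, which tissue macrophages secrete, and Gimap1, a GTPase of lymphocytes. Car3, the muscle and fat form of carbonic anhydrase, had a log2 fold change of 1.48 ± 0.12 (SE) and an adjusted p of 1.82e-30 (edgeR), with 31, 1, 2 and 280 UMIs in the members of the 4 sections. Alox15 had 1, 3, 2 and 137 UMIs in members and a log2 fold change of 1.39 ± 0.14 (SE), and Saa1 had 0, 0, 1 and 45 UMIs. Ehmt2fl/fl replicate 2 held most of these UMIs. In spots with exactly 1 globin UMI, Car3, Alox15, Saa1 and Hp were higher than in spots with none in 4 of 4 sections.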
